A study of Mus musculus with 4 samples.

Results

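The imprinted cluster at the distal end of mouse chromosome 7 holds 2 neighbouring domains, Igf2-H19 and Kcnq1ot1, and the CpG methylation of their genes H19, Igf2, Kcnq1ot1, Kcnq1, Cdkn1c and Phlda2 was measured in liver. On mm10, H19 lies at chr7:142575530-142578146, Igf2 at chr7:142650768-142666816, Kcnq1ot1 at chr7:143213111-143296547, Cdkn1c at chr7:143458339-143461059 and Phlda2 at chr7:143501545-143503145, all on the reverse strand, and Kcnq1 at chr7:143106877-143427050 on the forward strand. The members were the cytosines of CpGs that were read in all 4 mice, lay in the cluster's interval of chromosome 7 (mm10) and fell in 1 of these genes by its RefSeq extent or within 5000 bp of it. They numbered 556 of the 1276684 cytosines common to the 4 mice, and another 403 common cytosines of the interval belonged to none of the 6 genes. H19 had 14 members, Igf2 176, Kcnq1 200, Cdkn1c 133 and Phlda2 33. All 23 members of Kcnq1ot1 were also counted under Kcnq1, because the RNA is transcribed from inside that gene on the other strand.

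The methylation was measured by enhanced reduced representation bisulfite sequencing (ERRBS), in which DNA is cut with restriction enzymes, here MspI (which cuts at CCGG) by the labels, the fragments are treated with bisulfite, and a methylated cytosine is read as C and an unmethylated one as T. Livers came from 4 untreated male mice between 6 and 8 weeks old on a normal diet: Mixed-1 and Mixed-2, of an undefined mixed background that includes C57BL/6J and other strains, and B6-1 and B6-2, which are C57BL/6. The mixed mice were kept at another institution than the C57BL/6 mice and were sequenced less deeply, so strain, housing and depth cannot be told apart. Coverage added up over all measured cytosines was 60654199 and 65176203 in the mixed mice, against 99215153 and 91886997 in the C57BL/6 mice. In these sums a read counts once for each cytosine it covers. Each value is the percentage of reads with C at 1 cytosine of 1 strand, covered by at least 10 reads, and does not separate methylcytosine from hydroxymethylcytosine or the maternal from the paternal allele. Where 4 values follow each other, they are those of the mixed mice (1, then 2) and then of the C57BL/6 mice (1, then 2). The median coverage of the members was 45, 49, 66 and 65 reads. Whole liver holds several cell types, and a level is an average over all of them.

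Imprinted genes are expressed from the allele of 1 parent, and clusters of them are governed by control regions that carry DNA methylation on the allele of 1 parent only. At Igf2-H19 the control region lies between the genes and is methylated on the paternal allele. The insulator protein CTCF binds the unmethylated maternal copy and keeps shared enhancers from Igf2, a fetal growth factor, while H19, a noncoding RNA, is expressed from the maternal allele. At the second domain the control region holds the promoter of Kcnq1ot1, a long noncoding RNA. It is methylated on the maternal allele, and the paternally expressed RNA silences neighbours such as Cdkn1c and Phlda2, which restrain growth.

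4 stretches of sequence show where the reads fell. They are printed 5′ to 3′ from the mm10 assembly (GRCm38.p6), with the CpGs measured in all 4 mice in capitals. The first lies in the H19 control region (chr7:142581132-142581240) and holds all 4 of its common cytosines. The second lies in the Kcnq1ot1 control region, inside Kcnq1ot1 and an intron of Kcnq1 (chr7:143295365-143295628), and holds all 19 of that region's common cytosines. The third lies upstream of the outermost Igf2 start, inside the antisense gene Igf2os (chr7:142669624-142669802), and the fourth, on the reverse strand, is an Igf2 promoter of the RefSeq table (chr7:142658755-142659054). The stretches were chosen to show the measured cytosines at 4 different levels of methylation, which were about 67%, 38%, 96% and 2% on average over the regions they belong to.
H19 control region: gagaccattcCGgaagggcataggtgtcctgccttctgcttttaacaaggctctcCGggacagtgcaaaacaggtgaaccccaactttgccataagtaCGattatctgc
Kcnq1ot1 control region: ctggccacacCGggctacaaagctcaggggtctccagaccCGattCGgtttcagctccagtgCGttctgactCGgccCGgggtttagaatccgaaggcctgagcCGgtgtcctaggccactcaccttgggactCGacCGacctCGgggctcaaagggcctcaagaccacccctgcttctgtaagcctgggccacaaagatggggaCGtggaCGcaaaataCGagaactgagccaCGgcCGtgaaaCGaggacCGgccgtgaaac
Igf2 upstream: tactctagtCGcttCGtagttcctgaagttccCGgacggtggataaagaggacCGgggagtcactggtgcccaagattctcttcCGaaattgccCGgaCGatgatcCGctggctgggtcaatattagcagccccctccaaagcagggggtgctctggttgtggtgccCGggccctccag
Igf2 promoter: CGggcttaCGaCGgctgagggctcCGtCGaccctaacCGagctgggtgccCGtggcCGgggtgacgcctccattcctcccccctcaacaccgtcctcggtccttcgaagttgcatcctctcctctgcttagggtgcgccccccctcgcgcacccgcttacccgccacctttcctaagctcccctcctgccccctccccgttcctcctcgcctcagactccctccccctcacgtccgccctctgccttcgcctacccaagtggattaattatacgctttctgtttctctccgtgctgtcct
The H19 stretch is sparse, with 3 CpGs in 109 bases, while the Kcnq1ot1 stretch has 19 CpGs in 264 bases, of which 17 were measured. Of the 556 members, 553 lay within 50 bp of a CCGG and the furthest lay 51 bp away. The regions are therefore described by short stretches near MspI sites and not along their whole length.

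RefSeq places 4 CTCF sites in the H19 imprinting control region (chr7:142580248-142582833). They are printed on the reverse strand. The capitals mark CCGCNNGGNGGCAG, the stretch of 14 bases on which the 4 sites agree best (11 positions, with N where they differ).
CTCF site m4: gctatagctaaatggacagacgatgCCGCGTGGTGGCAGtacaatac
CTCF site m3: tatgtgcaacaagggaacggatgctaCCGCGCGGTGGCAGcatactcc
CTCF site m2: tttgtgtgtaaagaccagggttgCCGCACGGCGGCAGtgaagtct
CTCF site m1: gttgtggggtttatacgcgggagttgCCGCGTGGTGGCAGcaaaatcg
Searched on both strands, the core occurred nowhere else in the control region, and 0.122% of the 32851 promoter sequences of 300 bases in the RefSeq table held it. The sites hold 3, 4, 3 and 5 CpGs in the order m4 to m1, and no mouse had a measured cytosine in any of them. There is no CCGG within 50 bp of a site, and the nearest common cytosine lay 795, 339, 552 and 796 bp from m4, m3, m2 and m1. The methylation of the CTCF sites themselves was thus not measured.

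The H19 control region, taken as 2000 to 4000 bp upstream of the H19 start, was methylated in about 2 of every 3 reads in each mouse. Its mean over 4 cytosines was 64.8%, 69.4%, 71.0% and 64.5%, or 67.4% ± 3.26 (SD, n = 4). The strains overlapped, since both the highest and the lowest mouse were C57BL/6. Single cytosines ran from 56.4% to 76.8% on average. The lowest, at base 142581230 of the forward strand, had 57.1%, 69.2%, 47.9% and 51.3%. The highest, at base 142581187 of the same strand, had 71.4%, 76.9%, 79.2% and 79.5%. These 2 cytosines were covered by 14 and 13 reads in the mixed mice, and the 95% Wilson interval of the lowest one ran from 32.6% to 78.6% in Mixed-1. The best covered cytosine, at base 142581142, had between 38 and 74 reads and stood at 63.2%, 61.7%, 70.7% and 62.2%. All such intervals cover counting error only, since amplified reads are not independent molecules.

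The methylation of H19 itself was intermediate as well, and lower than in the control region. Within 1000 bp of the H19 start, 6 cytosines between 19 and 97 bp upstream of it averaged 42.1%, 33.4%, 36.4% and 49.6%, a mean of 40.4% ± 7.13 (SD, n = 4). The strains overlapped there too. In the exons of H19, 4 cytosines averaged 41.6%, 40.9%, 53.2% and 62.6%, a mean of 49.6% ± 10.4. Here both mixed mice lay below both C57BL/6 mice, by 16.7 points on average, and the exact permutation test gave a two-sided p of 0.333, the smallest that 2 mice against 2 allow. Their median coverage was 25.5, 23, 40 and 52 reads. The control region exceeded the H19 start region in each of the 4 mice, by 27.0 points ± 10.04 on average, and exceeded its flanks of 5000 bp, whose 10 cytosines are those of the start region and the exons, by 23.4 points ± 9.99 (SD, n = 4). The exact two-sided sign test gave a p of 0.13 for both differences, the smallest that 4 mice allow.

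**Figure D1:**
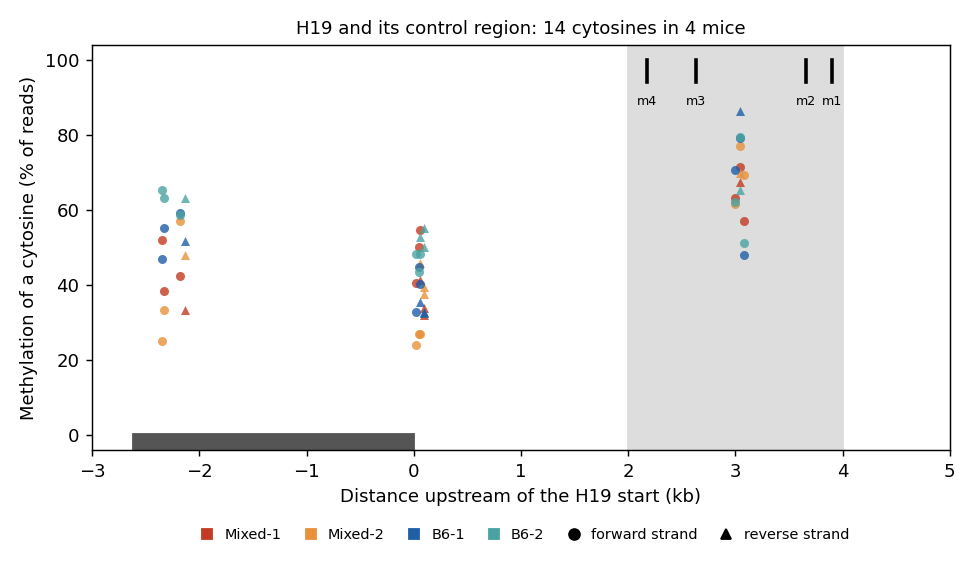
Methylation of the 14 cytosines of H19 (vertical axis, percent of reads) against their distance upstream of the H19 start (horizontal axis, kb). Each point is 1 cytosine in 1 mouse, coloured by mouse and shaped by strand; the dark bar is the gene, the grey band the control region and the ticks m1 to m4 the CTCF sites. The control region points, with means of 64.5% to 71.0% by mouse, lie above most points at the start and in the exons, and no point lies at a CTCF site.

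The control region of Kcnq1ot1, from 500 bp upstream to 2000 bp downstream of its start, was also at an intermediate level, but lower. Its 19 cytosines, which lie between 929 and 1172 bp inside the RNA, averaged 38.8%, 41.6%, 35.8% and 35.8%, or 38.0% ± 2.78 (SD, n = 4). The mixed mice were higher by 4.37 points without overlap, with an exact two-sided permutation p of 0.333. They were also higher without overlap over all common cytosines of the genome, by less, at 28.51%, 28.70%, 28.36% and 28.44%. The 19 cytosines differed little from each other on average, from 32.9% to 43.2%, and 8 of them were between 30% and 70% in all 4 mice. The lowest, at base 143295571 of the reverse strand, had 35.3%, 28.6%, 42.1% and 25.6%. The highest, at base 143295375 of the forward strand, had 54.2%, 44.9%, 31.7% and 41.9%. No cytosine of the region was under 20% or over 80% on average.

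These cytosines were read together in groups, so they are not independent of each other. They fell into 4 runs, each on 1 strand and with neighbours at most 50 bp apart, and within a run a mouse's values spanned at most 8.68 points. Between runs the order of the mice changed. In the forward run of 3 cytosines, bases 143295375 to 143295410, the means were 52.8%, 43.0%, 31.4% and 41.6%. In the reverse run of 7 cytosines, bases 143295571 to 143295618, they were 37.0%, 34.7%, 41.2% and 24.8%. Mixed-1 was thus the highest mouse in the first run and B6-1 in the second, and the difference between the strains was 11.4 points in the first and 2.84 points in the second.

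**Figure D2:**
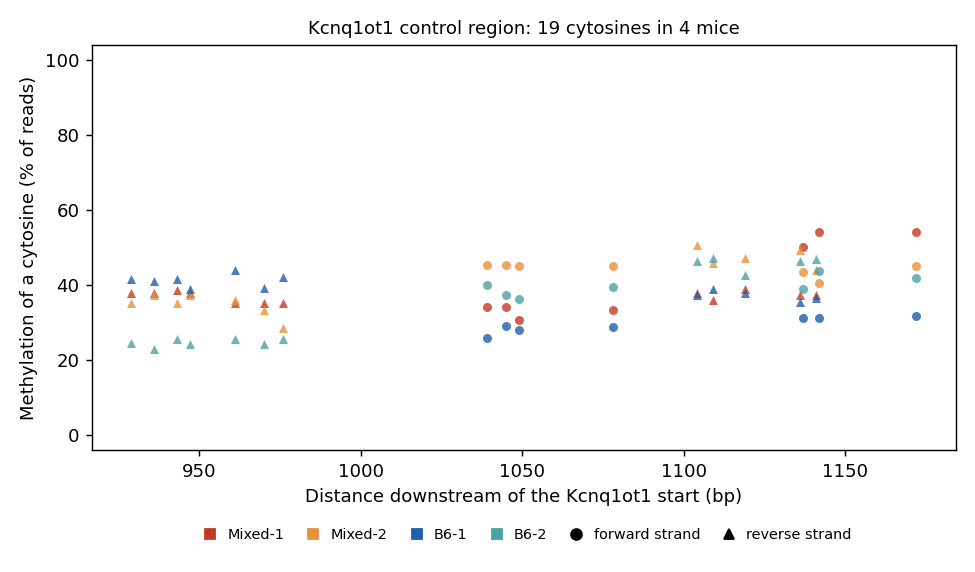
Methylation of the 19 cytosines of the Kcnq1ot1 control region (vertical axis, percent of reads) against their distance downstream of the Kcnq1ot1 start (horizontal axis, bp). Each point is 1 cytosine in 1 mouse, coloured by mouse and shaped by strand. Points of 1 mouse stay together within a run of neighbouring cytosines, the order of the mice changes between runs, and all averages over the mice lie between 32.9% and 43.2%.

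Within 5000 bp of this region, DNA was measured on 1 side only, where it was more methylated. The 2 common cytosines in its flanks of 5000 bp lie inside Kcnq1ot1, 6724 to 6799 bp downstream of its start. They averaged 72.9% ± 4.14, at 62.3% and 83.4%. This left the control region 34.9 points ± 5.96 lower (SD, n = 4; lower in 4 of 4 mice; exact two-sided sign test, p = 0.13). The 4 cytosines in the rest of Kcnq1ot1, those 2 included, averaged 81.3% ± 1.87. The Kcnq1ot1 control region was also below the H19 control region in each mouse, by a mean of 29.4 points ± 3.99 (SD, n = 4; exact two-sided sign test, p = 0.13). The 4 cytosines at H19 and the 19 at Kcnq1ot1 sample 3 of 60 and 17 of 105 CpGs of their regions.

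Igf2, which encodes the growth factor, was nearly unmethylated around the starts that could be measured. Within 1000 bp of any of its 6 RefSeq starts, 124 cytosines averaged 2.65%, 2.15%, 2.00% and 1.87%, a mean of 2.17% ± 0.34 (SD, n = 4). The mixed mice were 0.47 points higher without overlap (exact two-sided permutation test, p = 0.333). This order is not particular to Igf2, since all start regions of the genome averaged 4.18%, 4.15%, 4.08% and 4.13%. The difference was 0.13 points at a coverage of at least 20 (exact permutation p = 0.667) and -0.048 points with reads pooled (exact permutation p = 1). All but 1 of the 124 were under 20% on average. Low levels are the rule at starts, since 94.8% of the cytosines of all start regions were under 20%, with a mean of 4.14%. Of the single starts, those at bases 142658804 and 142659485 had 102 and 94 cytosines, many of them shared, and means of 1.53% and 1.52%. The start at base 142661271 had 14 cytosines at 2.68% and the start at base 142657496 had 17 at 5.50%. No common cytosine lay within 1000 bp of the starts at bases 142662270 and 142666816, the second of which is the outermost. The Igf2 promoter printed above belongs to the start at base 142658804, and 8 of its 24 CpGs were measured.

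The low level did not hold along the whole Igf2 locus. Upstream of the outermost start, 11 cytosines between 2818 and 2976 bp away averaged 95.9%, 95.6%, 95.1% and 97.1%, or 95.9% ± 0.84 (SD, n = 4), and all 11 were over 80%. Just inside the gene, 2 cytosines between 1262 and 1277 bp downstream of that start averaged 69.2% ± 3.10. A further 33 cytosines between 2429 and 2625 bp downstream of it, in an intron, averaged 2.78% ± 0.79, 66.4 points lower on the other side of a gap of 1152 bp, in which 1 further common cytosine was measured. Near the 3′ end, 2 exon cytosines averaged 67.1%, 78.8%, 77.5% and 67.7%, a mean of 72.8% ± 6.26 in which the strains overlapped. A single cytosine at base 142657342, in an intron within 1000 bp of the innermost start, was at 38.2%, 35.9%, 41.8% and 43.6%. It was the only one of the 124 above 20% on average over the mice.

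**Figure D3:**
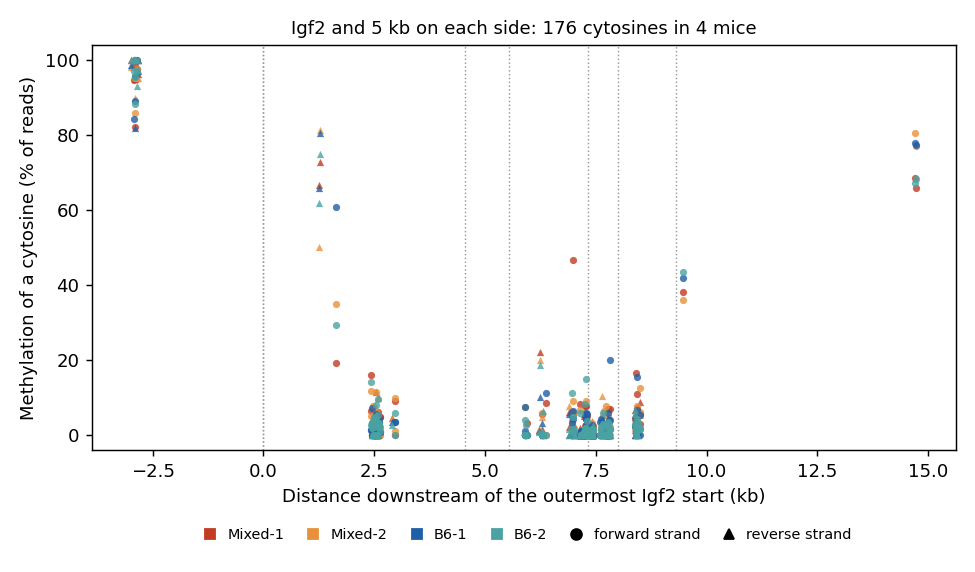
Methylation of the 176 cytosines of Igf2 and its 5 kb flanks (vertical axis, percent of reads) against their distance downstream of the outermost Igf2 start (horizontal axis, kb). Each point is 1 cytosine in 1 mouse, coloured by mouse and shaped by strand, and dotted lines mark the 6 starts. On average over the 4 mice, methylation is at 95.9% upstream, between 1.52% and 5.50% around the starts that could be measured, and at 72.8% at the 3′ end.

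Kcnq1, which encodes the pore-forming subunit of a voltage-gated potassium channel, had a start region of low methylation and a methylated body. Within 1000 bp of its starts, 38 cytosines averaged 3.61%, 4.43%, 2.43% and 2.80%, a mean of 3.32% ± 0.89 (SD, n = 4). Of these, 37 were under 20% on average, where 94.8% were over all start regions of the genome. The 3 nearest the outermost start, 3 to 47 bp inside the gene, were higher, at 21.7%, 20.6%, 12.2% and 11.9%. Their mean was 16.6% ± 5.27, with single cytosines from 6.52% to 30.5% on average. In the body, outside the start region and the Kcnq1ot1 control region, 126 cytosines averaged 83.2%, 83.6%, 81.1% and 81.9%, a mean of 82.4% ± 1.18, with 92 of them over 80%. In both regions the mixed mice lay above the C57BL/6 mice, by 1.40 and 1.95 points, with the smallest possible p of 0.333 in each (exact two-sided permutation test). The strains stood in the same order over all start regions and over all common cytosines of the genome. With reads pooled over a region the differences were 0.39 and 0.61 points, and at a coverage of at least 20 that of the start region was 0.61 points, each with a permutation p of 0.667 from an exact test. The Kcnq1ot1 control region, which lies inside the same gene, was 44.4 points ± 1.74 below the Kcnq1 body, and lower in 4 of 4 mice (exact two-sided sign test, p = 0.13).

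The Kcnq1 body was not even. Intron stretches of intermediate level lay at bases 143333151 to 143333286 (3 cytosines, 52.6% ± 7.03), 143365458 to 143365533 (3 cytosines, 56.4% ± 10.5) and 143412614 to 143412771 (6 cytosines, 31.9% ± 1.61). In the last of these the mice stood close together, at 33.5%, 30.2%, 30.7% and 33.0%. Only 3 cytosines of the body were under 20%, and each was the partner, on the other strand, of a cytosine at a much higher level. The CpG at base 143192639 was at 93.3% on the forward strand and 4.50% on the reverse strand, and the CpG at base 143192686 was at 1.04% on the forward strand and 96.7% on the reverse strand. The CpG at base 143412614 was at 39.0% on the forward strand and 2.90% on the reverse strand. Both of its values enter the mean of 31.9% given above for the stretch that starts there. All 3 CpGs lie in a CCGG. Among the members, 117 CpGs were measured on both strands, 27 of them in a CCGG, and the strands differed by a median of 1.08 points. The difference passed 20 points at 4 CpGs, of which the fourth, at base 143460365 in Cdkn1c, does not lie in a CCGG. The part of the cut site in these values was not tested.

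Cdkn1c, an inhibitor of cyclin-dependent kinases, was partly methylated. Of its 133 members, 63 were under 20% on average, 65 between 20% and 80%, and 5 over 80%. The 43 cytosines of its start region lie between 686 and 996 bp inside the gene, in an exon. They averaged 24.7%, 24.7%, 25.7% and 22.6%, or 24.4% ± 1.31 (SD, n = 4), and the strains overlapped. Of these, 29 were between 20% and 80%, 14 were under 20% and none was over 80%. The start region of Phlda2, by contrast, was 21.5 points ± 1.36 lower, in 4 of 4 mice (exact two-sided sign test, p = 0.13). The places compared are unlike, since 7 of the Phlda2 cytosines lie only 275 to 334 bp inside that gene. Nearer the outermost Cdkn1c start, cytosines at bases 143460966 to 143461188 were read in both C57BL/6 mice alone, with values from 0% to 50%. The 62 cytosines in the rest of the gene averaged 20.3% ± 1.85, with Mixed-2 the highest mouse at 23.1%, and 35 of them were under 20%, 25 between 20% and 80%, and 2 over 80%.

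Within Cdkn1c the level changed in steps. At its 3′ end, 3 exon cytosines at bases 143458918 to 143458950 averaged 82.1% ± 5.52. An intron stretch of 31 cytosines at bases 143459286 to 143459450 averaged only 12.4% ± 2.30, and 69 exon cytosines at bases 143459759 to 143460373 averaged 23.2% ± 1.39. Upstream, the single cytosines 1046 and 1160 bp before the start were at 86.9% and 82.7%. Further away, 9 cytosines between 2880 and 2988 bp upstream averaged 25.2% ± 2.67 (single cytosines 4.68% to 44.3%). Another 9 between 3991 and 4053 bp upstream averaged 6.46% ± 0.82 (5.23% to 8.21%). The 7 between 4281 and 4413 bp upstream averaged 43.3% ± 3.64 (14.5% to 83.8%). The strains overlapped in the first and the last of these 3 stretches, and in the middle one the mixed mice, at 6.81% and 7.09%, lay just above the C57BL/6 mice, at 6.70% and 5.25%.

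**Figure D4:**
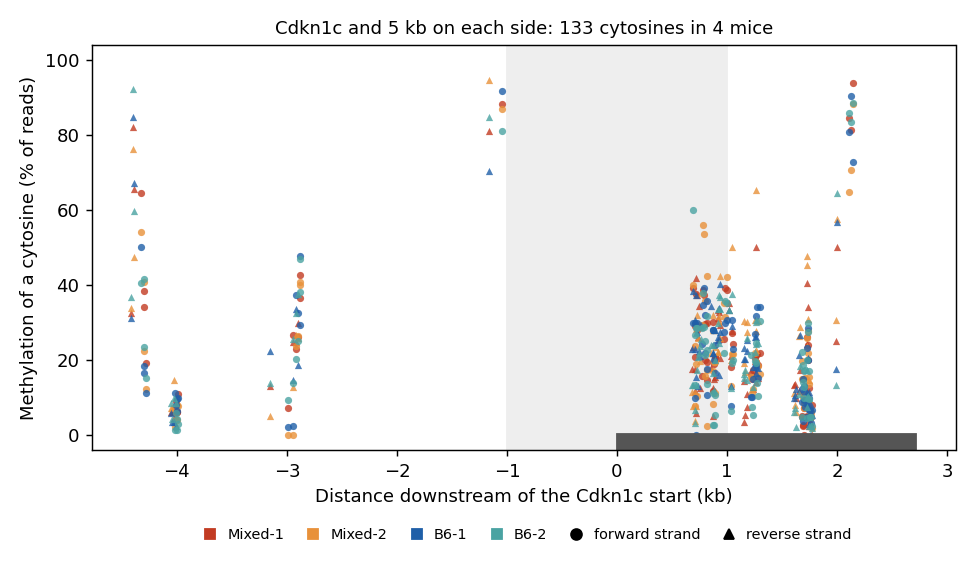
Methylation of the 133 cytosines of Cdkn1c and its 5 kb flanks (vertical axis, percent of reads) against their distance downstream of the Cdkn1c start (horizontal axis, kb). Each point is 1 cytosine in 1 mouse, coloured by mouse and shaped by strand; the dark bar is the gene and the grey band the region within 1000 bp of the outermost start. Most points inside the gene lie under 50%, with the mean of the 69 exon cytosines at 23.2%, while the 3′ end and the 2 cytosines just upstream of the band lie near 80%.

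Phlda2, a pleckstrin homology domain protein that limits placental growth, was unmethylated like Igf2. Its start region had 27 cytosines with means of 3.51%, 3.01%, 2.45% and 2.62%, or 2.90% ± 0.47 (SD, n = 4). The mixed mice were 0.73 points higher (exact two-sided permutation test, p = 0.333), but 0.016 points higher with reads pooled (p = 1). The strains stood in the same order over all start regions of the genome, where 94.8% of cytosines were under 20%. Of the 27 cytosines of Phlda2, 26 were under 20% and the other, at base 143504145, was at 42.1%, 37.2%, 29.7% and 43.5%. The next 3 cytosines upstream of the gene, that one included, averaged 35.4% ± 9.38, and the 2 cytosines downstream averaged 96.8% ± 1.64. The promoter sequence of Phlda2 in the RefSeq table held no common cytosine. It held cytosines read in Mixed-1 and both C57BL/6 mice, or in both C57BL/6 mice alone, with values from 0% to 5.13%.

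Among 12 regions set in order of level, the start regions of Igf2, Phlda2 and Kcnq1 came lowest, and the ranges of neighbours in this order overlapped. The Cdkn1c body and start region followed, also with overlapping ranges. The Kcnq1ot1 control region (35.8% to 41.6%), the H19 start region (33.4% to 49.6%) and the H19 body (40.9% to 62.6%) overlapped in turn. The H19 control region (64.5% to 71.0%) lay above all of these and overlapped the Igf2 3′ end. The Kcnq1 body and the Igf2 upstream region came highest of these 12, at 82.4% and 95.9%, and their ranges overlapped no neighbour among them. The low values depend on which cytosines are averaged. The mean of the Phlda2 start region was 0.83% within 500 bp of a start and 5.22% with each run counted once, that of Igf2 was 3.82% with each run counted once, and that of Kcnq1 was 2.08% at a coverage of at least 20.

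**Figure D5:**
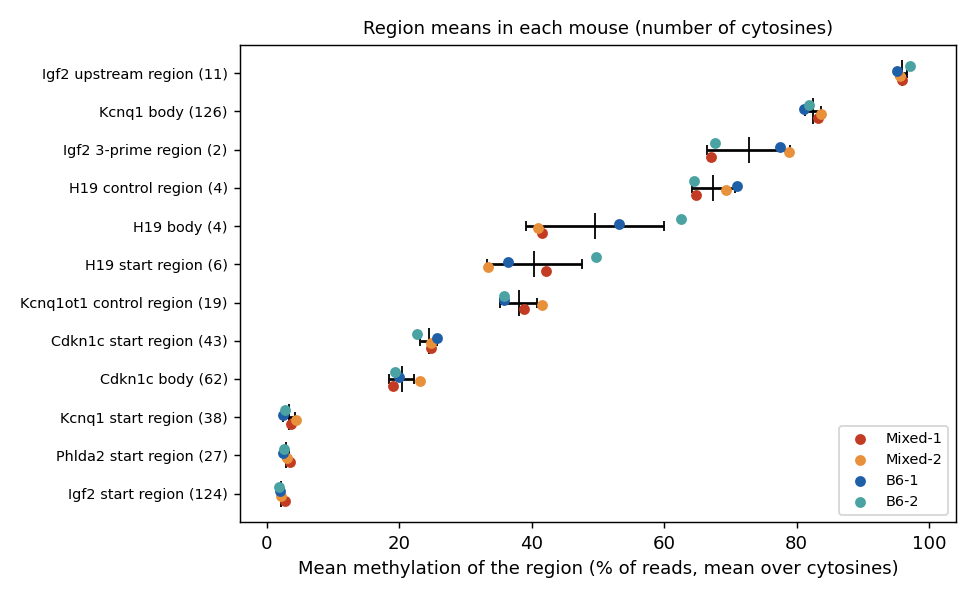
Mean methylation of 12 regions (horizontal axis, percent of reads averaged over the cytosines of a region; number of cytosines in brackets) in each mouse. Coloured points are mice, the black tick is the mean of the 4 mice and the bar its SD. The start regions of Igf2, Phlda2 and Kcnq1 lie under 5%, the Cdkn1c, Kcnq1ot1 and H19 regions lie in between, up to 71.0%, and the Igf2 upstream region lies at 95.9%.

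Intermediate levels were more frequent among the members than among all common cytosines. Of the 556 members, 290 were under 20% on average, 140 (25.2%) between 20% and 80%, and 126 over 80%, while 11.7% of all common cytosines were between 20% and 80%. In each of the 4 mice 36 members, or 6.47%, were between 30% and 70%, against 2.66% of all common cytosines. By gene these 36 were 7 at H19, 2 at Igf2, 15 at Kcnq1 including those shared with Kcnq1ot1, and 12 at Cdkn1c, with none at Phlda2. Of windows of 1 kb with at least 3 common cytosines, 8 of the 38 that held a member (21.1%) averaged between 30% and 70% in all 4 mice, against 9.96% of 91463 windows of the genome. They lay at H19, Igf2, Kcnq1, the Kcnq1ot1 control region and upstream of Cdkn1c. Genome-wide, 461 of 15848 start regions with at least 5 cytosines (2.91%) were at such a level in all 4 mice. These shares are a description, since neighbouring cytosines share reads.

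The start regions of other imprinted loci were set beside the control regions. They were defined by transcript starts and not as control regions, so unlike elements may be compared. The start region of Airn, the noncoding RNA of the Igf2r cluster, averaged 39.9% ± 9.52 over 10 cytosines, that of Peg3 40.7% ± 2.53 over 8, and that of the noncoding RNA Meg3 62.0% ± 1.78 over 11 (SD, n = 4). The Kcnq1ot1 control region differed from Airn by a mean of -1.93 points, with 1 of 4 mice higher, and from Peg3 by -2.71 points, with 1 of 4 mice higher (exact two-sided sign test, p = 0.625 for each). It was 24.0 points ± 4.04 below Meg3 in 4 of 4 mice, and differed from it by -9.75 points on average when the start region was narrowed to 500 bp on each side. The H19 control region was above Airn, Peg3 and Meg3 in 4 of 4 mice, by 27.5 ± 11.9, 26.7 ± 5.55 and 5.45 ± 2.96 points. With the narrower start region the difference from Meg3, which then had 4 cytosines at 47.8%, was 19.7 points. For each difference with the same direction in 4 of 4 mice the exact sign test gave p = 0.13, and over these 6 comparisons none could pass an adjustment.

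10 neighbouring genes were taken from a list. Mrpl23 lies outside the interval, as does the outermost start of Nap1l4, and neither gave a value. Ins2 and Trpm5 had no common cytosine within 1000 bp of a start. Ascl2, a transcription factor of the placenta, was at 2.09% ± 0.29 over 49 cytosines, Cd81, a tetraspanin of the cell surface, at 0.22% ± 0.12 over 48, and Tssc4 at 1.56% ± 0.21 over 43. Slc22a18, a membrane transporter next to Cdkn1c, was at 17.0% ± 2.65 over 10 cytosines. Th, tyrosine hydroxylase, was at 36.7% ± 4.80 over 2 cytosines and Tspan32 at 85.4% ± 3.41 over 1. Of the 6 measured neighbours, the 3 with over 40 cytosines were thus under 3% on average, as were Igf2 and Phlda2.

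The strains were compared at each cytosine with a logistic model fitted over all 1276684 common cytosines. At an adjusted p under 0.01 and a difference of at least 25 points, 0 of the 556 members passed, where 73 cytosines, or 0.00572% of all, passed across the genome. At an unadjusted p under 0.05, 15 members (2.70%) passed, against 2.03% of all cytosines, and 4 of these also differed by 25 points or more. The lowest adjusted p among the members was 1 (logistic model with overdispersion moderated by limma). Fisher's exact test, with the reads of each strain added up, called 2 of the 556 members and 1612 of the 1276684 common cytosines. Adding up the reads does not treat the mouse as the replicate. With 2 mice in each strain, these values leave room for strain differences that the design could not detect.

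The 3 members with the widest ranges between mice had fewer reads in the mixed mice than in the C57BL/6 mice. The widest range was at base 143325369 in a Kcnq1 intron, with 60.0%, 91.7%, 42.6% and 35.6% at 10, 12, 61 and 45 reads. At base 143459791, in an exon of Cdkn1c, the values were 50.0%, 65.4%, 18.1% and 24.4%. The mixed mice lay above the C57BL/6 mice there by 36.5 points, with an unadjusted p of 0.00183 and an adjusted p of 1 from the logistic model. That cytosine had 26 reads in each mixed mouse where its 4 neighbours on the same strand had medians of 91.5 and 65.5, while in the C57BL/6 mice it had 72 and 78 reads and its neighbours 73 and 77. A similar gap lay at base 142659824 in Igf2, where Mixed-1 stood at 46.7% (95% Wilson interval 24.8% to 69.9%) and the other mice at 9.09%, 4.24% and 4.88%. Its coverage was 15, 11, 118 and 123 reads, against neighbour medians of 112, 102.5, 124 and 125.5. The part of coverage in these differences was not tested. The lowest unadjusted p, 0.00147 in the logistic model, was at base 143365458 in a Kcnq1 intron, with 81.1%, 80.6%, 56.3% and 58.9% at 53, 108, 103 and 90 reads, and its adjusted p was also 1.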

How the data were processed

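CpG methylation was measured by ERRBS in the livers of 4 mice, and each mouse was a replicate of its strain as the labels give it. Per the labels DNA was digested with MspI, while the study's general account of ERRBS names TaqαI beside it. The authors sequenced single reads of 50 cycles and mapped them to mm10 with BSMAP, while the submitters' processing notes name Bismark and SAMtools without versions. The deposited values are, per CpG cytosine on either strand, the read count (coverage, not normalized, at least 10) and the percent of reads showing C and showing T, which the authors called without pooling mice. Reads with another base were present at 0.525% to 0.811% of the sites of a mouse.

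Cytosines were placed on GRCm38.p6 with its RefSeq genes, and all 959 of the interval lay on a CpG. Start regions were 1000 bp on each side of a start, bodies the rest of the gene without start and control regions, and region values means over cytosines in each mouse. The members, gene lists and regions were chosen with earlier results of these data known. Single cytosines were named by rule as the lowest, median and highest of a control region, the 3 widest ranges and the lowest p, and others were singled out after their values were seen. Expression was not analysed here, so the tissue was not checked against marker genes. Stretches were groups of members with gaps of at most 100 bp. Promoter sequences of 3 of the 6 genes (Igf2, Kcnq1ot1 and Phlda2) were matched in the RefSeq table.

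Region means were compared by exact permutation over mice (smallest p 0.333) and by exact sign tests (smallest p 0.13). Each cytosine was tested by logistic regression on reads with strain as the term, with an overdispersion that limma 3.58.1 (R 4.3.3) moderated toward a prior of 1.80 fitted on sites with means of 10% to 90%, and Benjamini-Hochberg adjustment over all sites. The model was tested on simulated data of 100000 sites with 200 changed by 50 points, where it called 54.5% of the changed sites and 0 others. Smaller changes were not simulated, while calls were made from 25 points and the largest strain difference of a member was 36.7 points. The share called does not describe differences of that size. Python 3.11.15, numpy 2.4.6, pandas 2.3.3, scipy 1.17.1 and matplotlib 3.10.9 were used. Alternatives were other coverage minimums, merged strands, pooled reads, other region bounds, other thresholds, Fisher's exact test, a replicate block and leaving out each mouse. Mean coverage per cytosine was 44.2 and 49.0 for the mixed mice, 63.7 and 60.1 for the others. At 10 reads, 3 reads are 30%, so single cytosines of low coverage are imprecise.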

Additional observations from a re-analysis of the deposited data

Results flagged for a closer look

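7 cytosines of H19 and its 5 kb flanks lay outside the comparisons because they reached 10 reads in both C57BL/6 mice only, and 3 of them, in the control region and near the start, are given here with their values. At base 142581387 in the control region, methylation was 60.6% in B6-1 and 59.3% in B6-2. At base 142578768, within 1000 bp of the H19 start, it was 63.6% in B6-1 and 92.9% in B6-2, from 11 and 14 reads. At base 142578976 it was 78.1% in B6-1 and 80% in B6-2. Near the 6 genes 197 cytosines were measured in some mice only, 87 of them in both C57BL/6 mice alone and 1 in both mixed mice alone, beside the lower depth of the mixed mice. Over the whole genome the mixed mice also had fewer measured cytosines, 1372599 and 1329761 against 1557387 and 1528130. The genome-wide share in both C57BL/6 mice alone was not counted, so these counts cannot be called particular to the 6 genes. The part of depth in these counts was not tested.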

How the results depend on the processing

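The direction of the difference between the control regions and their flanks, and between the 2 control regions, was kept with pooled reads and on leaving out each mouse. Flanks of 10000 bp added no common cytosine and so tested nothing. With bounds of 1000 bp on each side of its start, the Kcnq1ot1 control region had 7 cytosines at 34.4%. With bounds of 20% and 80%, the share of intermediate cytosines in the H19 control region was 93.8%, against 62.5% ± 25 (SD, n = 4 mice) with bounds of 30% and 70%. The strain difference of the H19 control region was small and changed sign when a mouse was left out, from -3.90 to 2.57 points. So did that of the H19 start region (-11.9 to 1.32), of the Igf2 upstream region (-1.34 to 0.62) and of the Cdkn1c start region (-0.996 to 2.12), all of them without a call. The Igf2 start region with pooled reads gave -0.048 points. The mean of the Phlda2 start region ranged from 0.83% to 5.22%, and the strain differences of the Igf2, Kcnq1 and Phlda2 start regions and of the Kcnq1 body shrank with pooled reads, as given beside them. The strain difference of the H19 control region was -5.56 points at a coverage of at least 20. Meg3 was the one of the 3 other loci whose differences from the control regions moved by over 1.5 times with a start region of 500 bp. Counting runs once, the RefSeq bounds of the H19 control region and a Kcnq1 body without Kcnq1ot1 were alternatives chosen after seeing the data. Leaving out single mice moved the count of all cytosines called from 73 to between 0 and 285 (225 without Mixed-1, 285 without Mixed-2, 0 without either C57BL/6 mouse), where the lone mouse is assumed to vary like the other strain. Fisher's exact test on pooled reads called 1612 cytosines and 2 members, both in Cdkn1c, and an adjusted p under 0.05 with 10 points called 258. With a replicate block the fit called 114 cytosines and 0 members. The deviations of same-numbered mice had a correlation of 0.000363 over 148813 cytosines, which are not independent. The labels give these mice only a shared number, and a shared batch was not tested. Depth limits single cytosines, and the number of mice limits every region.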
